A study of Mus musculus with 83 samples.

Results

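The colon of male mice at 28 months of age, the oldest group of the study, was compared with the colon at 24 months to describe what changed over the last interval of life examined. The 35 libraries of these ages, 18 mice at 28 months and 17 at 24 months, were chosen by the age in their labels, out of 83 libraries from mice of 5 ages. All were C57BL/6J/Ukj males kept only for ageing, with no treatment or genetic change named in the labels, bred at a single facility with a cycle of day and night, and the RNA came from the proximal section of the colon. Each age was represented by different mice, so that a difference between 24 and 28 months is one between groups of animals and not a change followed in any of them. The 16 mice each at 3, 9 and 15 months were used to ask whether a difference was confined to the last interval.

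The wall of the colon holds an epithelium of absorptive colonocytes, mucus-secreting goblet cells, hormone-secreting cells and chemosensory tuft cells, over a lamina propria rich in plasma cells, with lymphoid follicles, muscle layers and enteric nerves. Goblet cells and their neighbours secrete mucus and antimicrobial proteins that keep microbes away from the surface, and the heavy load of secreted protein passes through the folding machinery of the endoplasmic reticulum. Like most tissues, the gut also runs a circadian clock, a loop in which the activators BMAL1 (gene Arntl) and CLOCK or NPAS2 switch on their own repressors, so that the messenger RNAs of the loop rise and fall over the day.

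Read pairs counted on genes numbered from 27802569 to 50861544 per mouse at 24 months and from 23026370 to 75838290 at 28 months. The summed level of 16 goblet cell markers was 29172 to 45278 CPM (counts scaled by the size of the normalised library) at 24 months and 25641 to 37172 at 28 months, and that of 16 colonocyte markers was 10016 to 15407 and 9536 to 17464, so both groups carried the epithelium their label names. Of markers of neighbouring tissues, the 8 of exocrine pancreas summed to at most 302 CPM in a 24-month mouse and 186 in a 28-month mouse, the 8 of skeletal muscle to at most 56.9 CPM and the 8 of keratinised squamous epithelium to at most 40.4 CPM. The libraries were prepared in 3 batches that each held both ages. In the distance from the mean of their age (the mean absolute deviation of log2 CPM), 2 of the 28-month mice lay above the highest 24-month mouse (0.237), up to 0.310 for mouse 13, and the highest mice at 9 and 15 months were at 0.290 and 0.276. Without mouse 13, 2156 genes were called in place of 2139.

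Of 18325 genes tested, 2139 differed between 24 and 28 months (quasi-likelihood F-test of edgeR, fitted over age plus batch, Benjamini-Hochberg adjusted p below 0.1), which is 11.7% of the genes. At 28 months 1038 were higher (5.66%) and 1101 lower (6.01%). Most differences were small, with a median size of 0.21 on the log2 scale among the called genes, and 72 of them exceeded 2-fold, 18 higher and 54 lower, of which 28 were immunoglobulin segments. In 2038 of the 2139 the fitted change had the same sign in each of the 3 library batches, and no gene passed an edgeR test of the interaction of age and batch (0 at an adjusted p below 0.1, also with other size factors, and 1138 of 18325 at an unadjusted p below 0.05). With 5 to 7 mice of each age in a batch, this test can miss differences between batches, so it does not show that the changes were equal. The distance of the mice from their group mean, as the mean absolute deviation over 14995 genes, averaged 0.175 ± 0.043 (SD, n = 18) at 28 and 0.155 ± 0.030 (SD, n = 17) at 24 months, and the difference of 0.0201 did not pass the test (two-sided permutation test over 35 mice, p = 0.12).

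Among protein-coding genes other than immunoglobulin segments, the largest rises were in genes of the circadian clock. Of 19 clock genes tested, 10 were higher and 4 lower at 28 months, against 5.66% and 6.01% of all genes. Leading them were Ciart, a repressor of CLOCK and BMAL1, Dbp and Tef, activators that bind D-box elements, and Per3, of the period family.

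Ciart was between 0.528 and 2.86 CPM at 24 months (median 0.653) and between 0.529 and 10.96 CPM at 28 months (median 3.59). It exceeded the highest 24-month mouse in 10 of 18 mice of 28 months, and the others overlapped with the younger group. The fitted log2 change was 2.44 ± 0.30 (SE), a 5.41-fold rise (adjusted p = 1.8e-08).

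Dbp was between 1.95 and 22.98 CPM at 24 months (median 3.97) and between 2.57 and 76.4 CPM at 28 months (median 22.05). Of the 18 older mice, 9 were above every 24-month mouse and 17 above the 24-month median. The log2 change was 2.17 ± 0.32 (adjusted p = 4.4e-06), with 2.27, 1.66 and 2.24 in the 3 library batches.

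Tef was between 15.8 and 58.01 CPM at 24 months (median 21.2) and between 17.5 and 168 CPM at 28 months (median 70.7). The groups overlapped, with 10 older mice above the highest of the 24-month group. The log2 change was 1.66 ± 0.20 (adjusted p = 1.7e-08). Per3 was between 7.38 and 26.3 CPM at 24 months (median 10.04) and between 9.94 and 72.2 CPM at 28 months (median 26.99), with a log2 change of 1.46 ± 0.17 (adjusted p = 1.7e-08).

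The repressors of the secondary loop, which bind the Arntl promoter, were higher as well. Nr1d1 (REV-ERB alpha) was between 10.4 and 83.02 CPM at 24 months (median 28.7) and between 14.3 and 191 CPM at 28 months (median 97.6), and Nr1d2 (REV-ERB beta) was between 25.7 and 75.3 CPM at 24 months (median 40.3) and between 28.8 and 164 CPM at 28 months (median 92.03). Their log2 changes were 1.32 ± 0.27 (adjusted p = 0.00084) and 1.19 ± 0.19 (adjusted p = 1.8e-05). In both genes 11 of the 18 older mice lay above all 24-month mice.

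Among the other repressors, Per1 rose by 0.99 ± 0.17 (adjusted p = 0.00011), Cry2 by 0.45 ± 0.09 (adjusted p = 0.00042) and Bhlhe40 by 0.22 ± 0.08 (adjusted p = 0.086), while Per2, at 0.59, did not pass the threshold (adjusted p = 0.11). Hlf, the third D-box activator, rose by 0.82 ± 0.16 (adjusted p = 0.00035).

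The opposite limb of the loop was lower. Arntl, the gene of BMAL1, was between 40.3 and 60.7 CPM at 24 months (median 53.7) and between 10.1 and 55.3 CPM at 28 months (median 36.2), with 11 older mice below every younger one and a log2 change of -0.63 ± 0.12 (adjusted p = 0.00043). Nfil3, a repressor at D-box elements, was between 11.4 and 22.4 CPM at 24 months (median 14.9) and between 3.47 and 18.4 CPM at 28 months (median 7.53). The fitted log2 change was -0.73 ± 0.14 (adjusted p = 0.00037). Cry1 changed by -0.51 ± 0.13 (adjusted p = 0.0078) and Npas2 by -0.35 ± 0.08 (adjusted p = 0.0018). Clock itself was at -0.01 (adjusted p = 0.93), and Rora and Bhlhe41 had values of 0.11 and 0.12 and were not called.

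**Figure D1:**
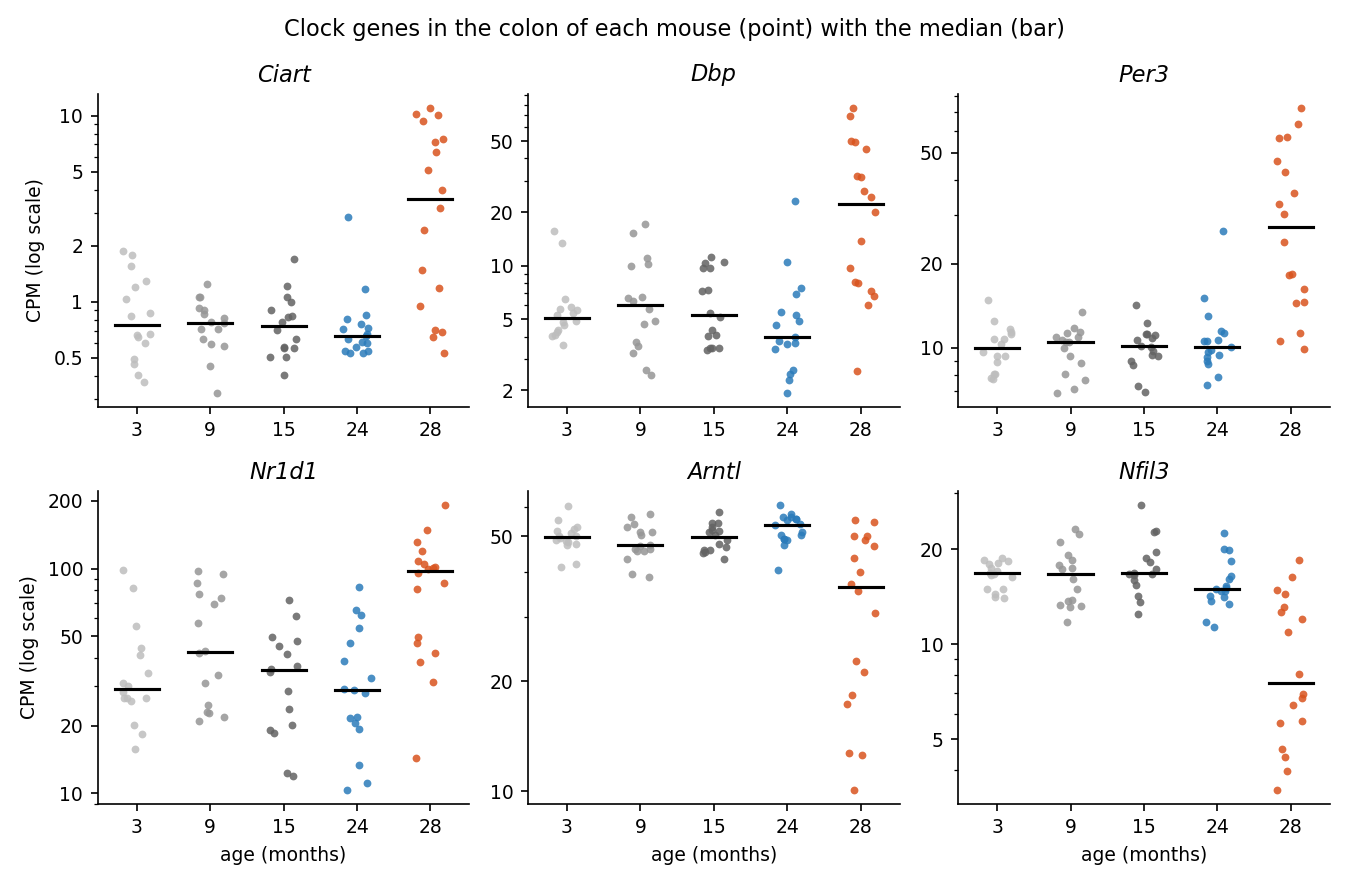
CPM on a log axis of 6 clock genes in each of the 83 mice (points) against age in months, with the median of each age as a bar. The 28-month mice spread over a wide range, from the level of the younger mice up to 76.4 CPM for Dbp and down to 10.1 CPM for Arntl, while the medians of the 4 younger ages lie close together.

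Promoters of the clock genes that were higher are shown because the loop acts on 2 short elements, the E-box CACGTG, bound by BMAL1 with CLOCK or NPAS2, and the D-box, searched as TTATGTAA and TTACGTAA. RefSeq promoters of GRCm38.p6, from 250 bases before to 50 after a start site, were searched on both strands. Of the 10 genes, 9 had an entry. The E-box was present for 3 of them (Ciart, Per1 and Tef) and the D-box for 1 (Per3), and of all 27025 genes with an entry 8.09% and 1.23% held them. Of the 4 clock genes that were lower, 1 held the E-box (Cry1) and 0 the D-box. E-boxes or D-boxes are in capitals.
Ciart, chr3:95882179-95882478, minus strand: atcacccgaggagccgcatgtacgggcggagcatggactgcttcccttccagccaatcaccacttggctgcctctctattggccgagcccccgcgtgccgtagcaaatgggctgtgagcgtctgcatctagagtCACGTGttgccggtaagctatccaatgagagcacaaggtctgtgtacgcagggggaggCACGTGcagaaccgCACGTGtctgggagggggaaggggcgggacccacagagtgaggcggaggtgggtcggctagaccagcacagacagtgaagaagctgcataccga
Per3, chr4:151044616-151044915, minus strand: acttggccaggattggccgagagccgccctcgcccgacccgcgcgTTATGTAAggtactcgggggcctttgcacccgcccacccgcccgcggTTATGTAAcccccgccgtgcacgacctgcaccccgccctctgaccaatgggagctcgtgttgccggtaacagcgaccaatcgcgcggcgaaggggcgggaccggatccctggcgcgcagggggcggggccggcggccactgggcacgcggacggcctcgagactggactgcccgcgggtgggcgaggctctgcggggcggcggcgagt
The promoter of Ciart holds 3 E-boxes and that of Per3 holds 2 D-boxes in this window. A match is only an occurrence of these letters.

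A score of clock phase was computed for each mouse after these values had been seen, as the mean log2 CPM of 10 genes that were higher or go with them (Dbp, Tef, Hlf, Per1, Per2, Per3, Nr1d1, Nr1d2, Ciart and Cry2) minus that of 5 of the opposite limb (Arntl, Npas2, Clock, Cry1 and Nfil3). It ran from -2.33 to -0.42 at 24 months (median -1.95) and from -2.30 to 1.75 at 28 months (median -0.01). In 10 of the 18 older mice it was above the highest 24-month mouse, and the others fell within the younger range. The 8 within it were those labelled 1 to 6, 8 and 10, and the 10 above it were those labelled 7, 9 and 11 to 18, numbers whose meaning the labels do not give. Medians at 3, 9 and 15 months were -1.94, -1.75 and -1.89. Within the library batches the medians at 24 and 28 months were -1.76 and 1.12, -1.95 and -1.53, and -2.07 and -0.29.

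With this score as a covariate, 13 genes were called between 24 and 28 months in place of 2139, 11 of which were among the 2139, and 1317 had an unadjusted p below 0.05. The SE of the age difference grew by a median factor of 1.27. The fitted log2 change of the genes called before shrank to a median of 46.9% of its size, and 1973 of the 2139 kept their direction. For the clock genes in the score this loss follows from how it is built. The score itself differed between the ages, with a mean of -1.86 at 24 and -0.14 at 28 months. As a covariate it therefore takes up part of the age difference of any gene, and a lost call does not show a part of clock phase. Of the members of all gene lists, 4 immunoglobulin segments were called with the score (3 higher and 1 lower) and no other member was called by edgeR. The hour at which a mouse was killed is in neither the labels nor the study's methods, so the time of day and age cannot be told apart, and the part of clock phase in the other differences was not tested.

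**Figure D2:**
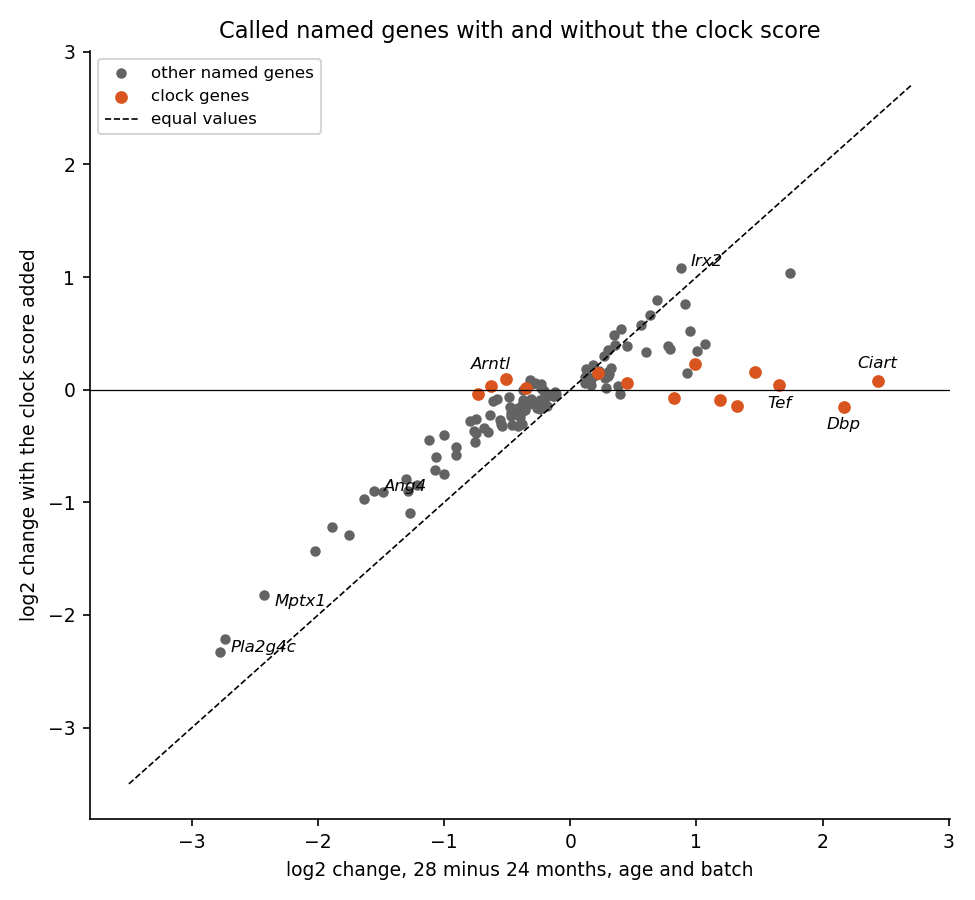
Fitted log2 change from 24 to 28 months of the named genes called in the comparison (immunoglobulin segments left out), without the clock score (horizontal axis) and with it (vertical axis). Clock genes (orange) lie along zero with the score, and most other genes (grey) lie between zero and the dashed line of equal values, while Irx2 lies above that line.

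The 13 genes called with the clock score were led by the homeobox genes Irx2 and Msx1. Irx2 was between 0.836 and 1.63 CPM at 24 months (median 1.04) and between 1.35 and 2.96 CPM at 28 months (median 1.87). It was above every 24-month mouse in 12 of 18 mice and above the 24-month median in all 18, with a log2 change of 0.87 ± 0.15 without the score (adjusted p = 8.9e-05) and 1.08 with it (adjusted p = 0.0011). It was not particular to this interval: at 24 months it already stood 3.32 above the mean of 3, 9 and 15 months (adjusted p = 2.4e-32).

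Further genes called with the score, here named after their values were seen, included Msx1, Gpnmb, Tfap2a, Atp6v0d2, Otx1, Apoe and Olfr60, all higher at 28 months, with log2 changes of 0.43 to 1.00 with the score. Apoe, a lipid carrier, was called only with the score, at 0.43, and was 0.18 without it (adjusted p = 0.18).

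Outside the immunoglobulin segments, several of the largest falls were in genes of the epithelial surface, many of them secreted. In bulk tissue, fewer cells of a type and less RNA per cell cannot be told apart. Pla2g4c, a cytosolic phospholipase A2, was between 3.85 and 498 CPM at 24 months (median 47.8) and between 3.03 and 79.6 CPM at 28 months (median 4.51). The ranges overlapped widely, but 17 of 18 older mice were below the 24-month median. The log2 change was -2.77 ± 0.63, 6.84-fold lower (adjusted p = 0.0027), with -4.12, -2.65 and -1.95 in the library batches, and -2.33 with the clock score (adjusted p = 0.28).

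Mptx1, a mucosal pentraxin, was between 24.01 and 2304 CPM at 24 months (median 641) and between 1.79 and 871 CPM at 28 months (median 96.2). In 17 of 18 older mice it was below the 24-month median, and in 6 it was below every 24-month mouse. The log2 change was -2.43 ± 0.50 (adjusted p = 0.00089) and -1.82 with the clock score. Its medians at 3, 9 and 15 months were 932, 1913 and 2048 CPM.

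Itln1, an intelectin that binds microbial sugars, was between 1.85 and 145 CPM at 24 months (median 19.03) and between 0.583 and 24.1 CPM at 28 months (median 2.31). The groups overlapped, with 6 older mice under the lowest 24-month mouse. The log2 change was -2.03 ± 0.48 (adjusted p = 0.004), but only -0.54 in library batch 3, against -3.39 and -2.18 in the other two. Pnliprp2, a lipase, was 1.82 to 109.9 CPM (median 16.7) at 24 months and 1.27 to 31.2 CPM (median 3.24) at 28 months, with a log2 change of -1.89 ± 0.51 (adjusted p = 0.013).

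Of 18 antimicrobial and host defence genes, 7 were lower and 1 higher at 28 months, and 17 had a negative fitted value, with a median of -0.38 against -0.01 over all genes. Beside Mptx1 and Itln1, the called falls were Mptx2 (-2.74, at no more than 0.88 CPM in any of these mice), Duoxa2 (-0.76 ± 0.20) and Duox2 (-0.47), which together make hydrogen peroxide at the surface, Lyz1 (-0.45), a lysozyme, and Pigr (-0.16), which carries IgA across the epithelium. Lcn2, which sequesters bacterial siderophores, was the 1 that rose, at 0.27. Reg3b and Reg3g, antibacterial lectins, had values of -0.92 and -0.60 and were not called. Once the clock score was included, 0 of the 18 were called, with a median of -0.28.

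Goblet cell genes were lower in part. Of 16 tested, 7 were lower and 0 higher. Ang4, an antimicrobial ribonuclease, was between 122 and 1585 CPM at 24 months (median 518) and between 4.29 and 666 CPM at 28 months (median 112). 9 of the 18 older mice were below every 24-month mouse, and the log2 change was -1.56 ± 0.38 (adjusted p = 0.0057).

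Retnlb, the goblet cell cytokine RELM beta, was between 102 and 1350.2 CPM at 24 months (median 419) and between 81.4 and 605 CPM at 28 months (median 177). The fitted log2 change was -1.07 ± 0.30 (adjusted p = 0.017), again with little difference in batch 3 (-0.11). Clca1, a mucus-processing protease, was between 2956 and 11334 CPM at 24 months (median 5332) and between 1447 and 6710.2 CPM at 28 months (median 2664). In 10 of 18 older mice it was under the lowest 24-month mouse, with a log2 change of -0.91 ± 0.18 (adjusted p = 0.0006).

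Fcgbp, a structural protein of mucus, had a log2 change of -0.46 ± 0.11 (adjusted p = 0.0039), and Capn9, Agr2 and Galnt12 ran from -0.24 to -0.10. The transcription factors that set the goblet fate were not called (Atoh1 0.10, Spdef 0.11), nor were Muc2 (-0.10), the main mucin, Tff3 (-0.14), Zg16 (0.03) and Spink4 (0.03). The list's median was -0.10. In the fit that held the clock score, it was -0.10 and 0 of 16 were called.

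The gasdermin C genes, whose products form membrane pores in epithelial cells, fell together and lie side by side on chromosome 15. Gsdmc4 was between 221 and 1909 CPM at 24 months (median 563) and between 58.01 and 665 CPM at 28 months (median 244), with 9 of 18 older mice under every younger one. The log2 changes were -1.30 ± 0.28 for Gsdmc4 (adjusted p = 0.0013), -1.29 ± 0.26 for Gsdmc3 (adjusted p = 0.00077) and -1.22 ± 0.27 for Gsdmc2 (adjusted p = 0.0025). The pseudogene Gsdmcl-ps of the same cluster followed at -1.48 ± 0.33 (adjusted p = 0.0024). These copies are similar in sequence, so reads may be shared between them. With the clock score the 3 coding genes were at -0.79, -0.90 and -0.84, not called.

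**Figure D3:**
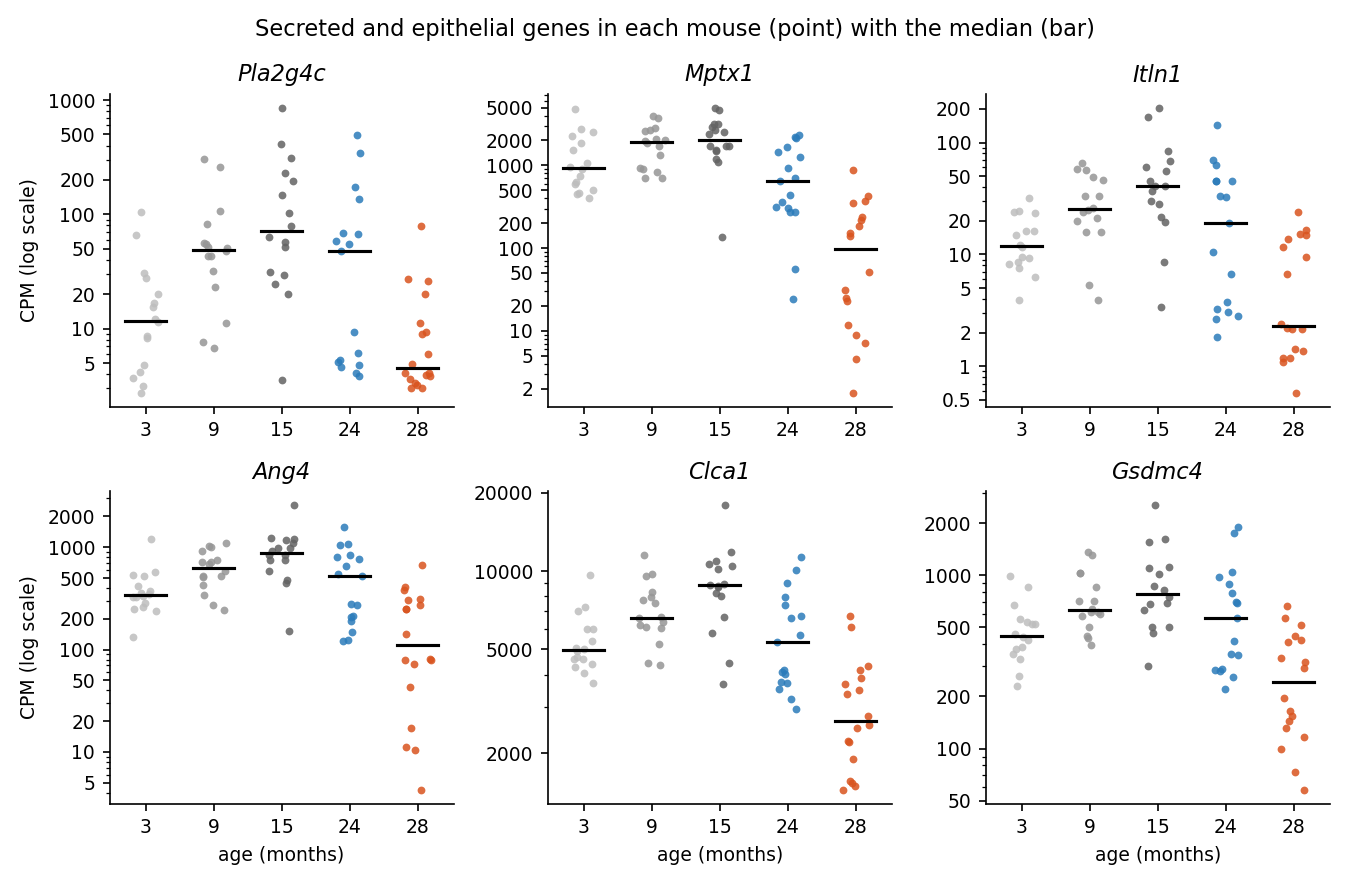
CPM on a log axis of 6 genes of the epithelial surface in each of the 83 mice (points) against age in months, with the median of each age as a bar. The 28-month median is the lowest of the 5 ages in all 6 panels, down to 96.2 CPM for Mptx1 and 112 for Ang4, and the 28-month mice reach below every 24-month mouse.

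Tuft cell genes were lower in 8 of 11 tested and higher in 0, with a list median of -0.38. Trpm5, the cation channel of their taste-like signalling, was between 8.82 and 13.9 CPM at 24 months (median 11.9) and between 5.58 and 13.2 CPM at 28 months (median 9.16). The log2 change was -0.40 ± 0.07 (adjusted p = 0.00021), and 7 of 18 older mice were under the lowest younger one.

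Siglecf, a sialic acid receptor also found on eosinophils, changed by -0.54 ± 0.10 (adjusted p = 0.00021), and Gnat3, the taste G protein gustducin, by -0.41 ± 0.11 (adjusted p = 0.018). Il17rb, a receptor subunit for interleukin 25, changed by -0.38 ± 0.11 (adjusted p = 0.021), and Pou2f3, the master regulator of the lineage, by -0.38. Avil, Dclk1 and Sh2d6 were also called, between -0.30 and -0.28, while Gfi1b (-0.38), Alox5ap (-0.22) and Ptgs1 (0.13) were not. Once the clock score was included, the median of the list was -0.19 with 0 called.

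Of 14 enteroendocrine genes, 2 were lower (14.3%, beside 6.01% of all genes). Nts, neurotensin, was 8.34 to 17.8 CPM (median 14.7) at 24 months and 5.98 to 15.5 CPM (median 9.42) at 28 months (log2 change -0.55 ± 0.13, adjusted p = 0.003), and Gcg, the precursor of glucagon-like peptides, changed by -0.24 ± 0.07 (adjusted p = 0.023). Their earlier changes, from 3 to 15 months to 24 months, were -0.77 and -0.65. Colonocyte and stem cell lists each had 1 gene higher and 1 lower of 16, a called share of 12.5% beside 11.7% of all genes, with Slc9a3 at 0.40 ± 0.12 and Slc5a8 at -0.26 ± 0.07 among transporters, Rnf43 at 0.18 ± 0.05 and Notum at -0.75 ± 0.17 among regulators of Wnt signalling. Notum was low, averaging 0.60 CPM at 24 and 0.35 CPM at 28 months. S100g, the calcium-binding protein calbindin D9k, fell from a median of 3.13 to 1.10 CPM (log2 change -1.27 ± 0.38, adjusted p = 0.025), after an earlier change of -1.64. None of 16 tight junction genes was called by edgeR or DESeq2 (3 at an unadjusted p below 0.05), the lowest unadjusted p-values belonging to Cldn8 (-0.18) and Cldn2 (0.27).

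Of 22 genes of endoplasmic reticulum folding and stress tested, 15 were lower and 0 higher at 28 months, with a median of -0.15. Pdia6, a protein disulfide isomerase, was between 224 and 326 CPM at 24 months (median 249) and between 161 and 238 CPM at 28 months (median 199). 15 of the 18 older mice were below every 24-month mouse, the clearest separation among the falls named by lowest p-value, and the log2 change was -0.38 ± 0.06 (adjusted p = 1.3e-05).

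Sdf2l1, a partner of the chaperone BiP, was between 38.03 and 70.1 CPM at 24 months (median 46.1) and between 26.5 and 46.1 CPM at 28 months (median 36.02). All 18 older mice were below the 24-month median, with a log2 change of -0.48 ± 0.09 (adjusted p = 0.00036). Creld2 changed by -0.41 ± 0.11 (adjusted p = 0.0091) and Pdia4, another isomerase, by -0.36 ± 0.07 (adjusted p = 0.00053).

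The chaperones Hyou1, Hsp90b1, Calr and Hspa5, which is BiP, had log2 changes of -0.34 to -0.30, and Manf, a secreted stress factor, of -0.30. Of the factors of the stress response, Atf6 was at -0.02, Atf4 at 0.01, Ddit3 at 0.00034 and Xbp1 at -0.12, none of them called, and of the sensors Ern1 was called at -0.16 and Ern2, at -0.07, was not. Plasma cells are rich in these proteins. The 12 plasma cell markers, of which Xbp1 is also in this list, summed to 4559 to 14671 CPM (median 8392) at 24 months and 3642 to 10952 CPM (median 6543) at 28 months, with 3 called lower and a median change of -0.41, and their part in the folding genes was not tested. In the fit that held the clock score, the median was -0.08 and 0 of 22 were called, Pdia6 being at -0.16 (adjusted p = 0.51).

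Promoters of these genes are shown for an element known from genes of this kind, the ER stress element, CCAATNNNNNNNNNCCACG, which is bound by ATF6 with NF-Y. It was found on either strand for 7 of 13 genes that were lower and had an entry (Calr, Canx, Creld2, Dnajc3, Hsp90b1, Hspa5 and Pdia6), and for 0.137% of all 27025 genes. The element is in capitals.
Hspa5, chr2:34771840-34772139, plus strand: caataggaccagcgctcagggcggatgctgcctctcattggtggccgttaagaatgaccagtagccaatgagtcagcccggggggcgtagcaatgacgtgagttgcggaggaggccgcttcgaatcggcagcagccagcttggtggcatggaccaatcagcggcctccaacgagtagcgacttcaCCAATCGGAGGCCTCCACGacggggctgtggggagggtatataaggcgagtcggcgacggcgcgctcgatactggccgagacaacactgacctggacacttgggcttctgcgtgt
Creld2, chr15:88819396-88819695, plus strand: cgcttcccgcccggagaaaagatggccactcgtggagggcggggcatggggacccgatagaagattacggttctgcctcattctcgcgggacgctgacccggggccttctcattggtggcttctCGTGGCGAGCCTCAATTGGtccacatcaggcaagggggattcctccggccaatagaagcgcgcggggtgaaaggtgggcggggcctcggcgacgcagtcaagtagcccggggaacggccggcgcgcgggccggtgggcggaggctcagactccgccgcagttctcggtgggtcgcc
In Hspa5 the element reads in the direction of the gene and in Creld2 on the other strand.

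Other chaperones and growth genes were lower in smaller numbers. Of 17 heat shock chaperones, 4 were lower (23.5%, beside 6.01% of all genes, and 9 when only the 2 ages were fitted). They were the mitochondrial pair Hspd1 (-0.21 ± 0.07) and Hspe1 (-0.21 ± 0.07), which share a promoter, the HSP90 activator Ahsa1 (-0.22 ± 0.07) and the small chaperone Hspb1 (-0.38 ± 0.15). Of 28 cell cycle genes, 8 were lower (28.6%, beside 6.01% of all genes) and all 28 had a negative fitted value. Top2a, the DNA topoisomerase of dividing cells, was 116 to 166 CPM (median 134) at 24 months and 94.1 to 154 CPM (median 113) at 28 months (log2 change -0.25 ± 0.07, adjusted p = 0.02). Bub1, of the spindle checkpoint, changed by -0.24 ± 0.07, Mcm5, of the replicative helicase, by -0.21 ± 0.08 and Kif11, a spindle motor, by -0.21 ± 0.08.

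Of 80 cytosolic ribosomal protein genes, 23 were higher and 1 lower (30% called, beside 11.7% of all genes), with a median of 0.09, and of 77 mitochondrial ones, 8 were lower and 0 higher, with a median of -0.04. Of the latter 10.4% were called lower, beside 6.01% of all genes, and 67 of 77 had a negative value. Rps18 was 450.5 to 568 CPM (median 482) at 24 months and 452 to 682 CPM (median 551) at 28 months (log2 change 0.14 ± 0.04, adjusted p = 0.024). Mrpl21 was 22.5 to 29.5 CPM (median 26.5) at 24 months and 18.9 to 26.9 CPM (median 23.6) at 28 months (log2 change -0.19 ± 0.05, adjusted p = 0.0052). The share of counts on cytosolic ribosomal protein genes was 2.95% to 3.59% (median 3.13%) at 24 months and 2.65% to 4.14% (median 3.47%) at 28 months. Neither the 13 protein genes of the mitochondrial genome nor the 42 nuclear respiratory chain genes held a called member by edgeR or DESeq2 in the fit of age and batch (2 and 3 at an unadjusted p below 0.05), and with smooth muscle and B cell scores 1 of the 42 was lower. Among those with the lowest p-values were mt-Co1 (0.09) and Cycs (-0.14).

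The 6 falls with the lowest p-values, Pdia6 among them, ran from -0.68 to -0.26 on the log2 scale, and in each at least 16 of 18 older mice were below the 24-month median. Khdrbs3, an RNA-binding protein, was between 14.4 and 24.02 CPM at 24 months (median 19.8) and between 10.7 and 19.1 CPM at 28 months (median 15.4). All 18 older mice lay below the 24-month median, with a log2 change of -0.37 ± 0.05 (adjusted p = 8.6e-06). Chid1, a chitinase-like protein, changed by -0.39 ± 0.06, Rtn4ip1, a mitochondrial protein, by -0.26 ± 0.04, Leo1, of the transcription elongation complex PAF1, by -0.31 ± 0.05, and Abhd3, a phospholipid hydrolase, by -0.68 ± 0.11, all with an adjusted p of at most 2.1e-05. Dmp1, a matrix phosphoprotein, fell from a median of 2.45 to 1.08 CPM (log2 change -1.12 ± 0.26, adjusted p = 0.0031).

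Among metabolic genes, 5 of 21 for xenobiotic metabolism were higher and 1 lower (28.6% called, beside 11.7% of all genes). Cyp3a13, a cytochrome P450, was 114 to 198 CPM (median 148) at 24 months and 135 to 275 CPM (median 183) at 28 months (log2 change 0.38 ± 0.09, adjusted p = 0.0042). Gsta1, a glutathione transferase, changed by 0.32 ± 0.09, the retinal dehydrogenase Aldh1a1 by 0.30 ± 0.08 and the sulfotransferase Sult1a1 by 0.28 ± 0.07, and Ephx1 by 0.19, while Gstm3 was lower at -0.22. Hoga1, a mitochondrial aldolase, was between 2.32 and 6.80 CPM at 24 months (median 4.35) and between 3.78 and 14.8 CPM at 28 months (median 7.32). It was above the 24-month median in 17 of 18 older mice (log2 change 0.79 ± 0.12, adjusted p = 1.7e-05), after a change of 0.69 by 24 months (adjusted p = 1.3e-07). Inmt, a methyltransferase of indole amines, rose by 0.92 ± 0.22 (adjusted p = 0.0054) after 0.98 by 24 months, and Pbp2, a phosphatidylethanolamine-binding protein, by 0.91 ± 0.23 (adjusted p = 0.0084).

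Genes of antigen presentation by MHC class I were higher at 28 months. All 21 genes of MHC class I presentation and the immunoproteasome had a positive fitted value, 11 of them called and 0 called lower, with a median of 0.15. Nlrc5, the transcriptional activator of these genes, was between 10.7 and 29.96 CPM at 24 months (median 22.98) and between 15.4 and 60.2 CPM at 28 months (median 27.4). Its log2 change was 0.45 ± 0.14 (adjusted p = 0.033), with 8 of 18 older mice above the highest younger one.

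Tap1, a transporter that loads peptides, was 72.3 to 139 CPM (median 103) at 24 months and 67.8 to 229.7 CPM (median 132) at 28 months (log2 change 0.35 ± 0.11, adjusted p = 0.027). The nonclassical class I genes H2-Q6 and H2-Q7 changed by 0.40 ± 0.12 and 0.34 ± 0.13, though reads of these near-identical genes may be shared. Psmb8 and Psmb9, the inducible proteasome subunits, rose by 0.30 ± 0.11 and 0.27 ± 0.09. Of 37 proteasome genes, which include these 2, 4 were called (10.8%, beside 11.7% of all genes), the other two being Psmb5 (-0.16 ± 0.05) and Psmd14 (-0.11 ± 0.04), which were lower. With the clock score the list's median was 0.24, larger than without it, with 0 of 21 called (7 when only the 2 ages were fitted) and Tap1 at 0.39 (adjusted p = 0.36).

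The class II genes split. Of 11, 5 were higher (H2-DMb1, Ciita, H2-Aa, Cd74 and H2-DMa) and 3 lower (H2-Eb2, H2-Ob and H2-DMb2). H2-DMb1, a chain of the peptide exchanger H2-DM, was between 9.88 and 39.4 CPM at 24 months (median 23.4) and between 19.3 and 121 CPM at 28 months (median 33.8). The fitted log2 change was 0.63 ± 0.16 (adjusted p = 0.0087). Ciita, the class II master activator, was at 0.54, as was H2-Aa. The 3 that were lower include H2-Ob, a chain of the modulator H2-DO typical of B cells, at -0.75 ± 0.24 (adjusted p = 0.038), beside H2-Eb2 at -0.75 ± 0.26 and H2-DMb2 at -0.64 ± 0.21. They fell together with the B cell genes described next. With smooth muscle and B cell scores in the fit 7 were higher and 0 lower, H2-Ob being at -0.15, H2-Eb2 at -0.02 and H2-DMb2 at -0.11. When only the 2 ages were fitted 1 was higher and 3 were lower, and with the clock score 0 of 11 were called (median 0.54).

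Of 46 interferon-stimulated genes, 10 were higher and 1, Mx1 at -0.37, was lower (23.9% called, beside 11.7% of all genes). Those that rose were interferon-inducible GTPases and the chemokine Cxcl9. Iigp1 was between 14.5 and 125 CPM at 24 months (median 37.1) and between 26.7 and 302 CPM at 28 months (median 54.6). 15 of 18 older mice were above the 24-month median and 3 above the range, and the log2 change was 0.95 ± 0.25 (adjusted p = 0.012). Gm4841, a GTPase of the same family, rose by 1.07 ± 0.34 (adjusted p = 0.038) and Tgtp1 by 0.56 ± 0.19 (adjusted p = 0.052).

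Gbp2, a guanylate-binding protein, was between 19.9 and 59.1 CPM at 24 months (median 31.5) and between 21.95 and 117 CPM at 28 months (median 41.6). Its log2 change was 0.60 ± 0.16 (adjusted p = 0.015), with 6 of 18 older mice above the 24-month range. Cxcl9, which attracts T cells, was 4.26 to 9.77 CPM (median 6.96) at 24 months and 4.06 to 45.95 CPM (median 7.63) at 28 months. The rise of 0.69 ± 0.22 (adjusted p = 0.044) went with 6 of 18 mice above the 24-month range and 2 below it, so the groups overlapped. Among the genes not called were Isg15 (-0.07), Ifit1 (0.13), Irf7 (-0.06) and Oas2 (-0.18). When only the 2 ages were fitted, 5 were higher and 0 lower. Once the clock score was included, 0 of 46 were called, the median being 0.22 against 0.10 without it.

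The interferon-stimulated response element was searched as GAAA, any 2 bases and GAAA in the promoters of the MHC class I and interferon-stimulated genes that were higher. Of 17 with an entry, 9 held it on either strand (Gbp2, Gbp7, H2-T22, Igtp, Irgm1, Irgm2, Psme1, Tgtp1 and Tgtp2), against 3.99% of 27025 genes. The element is known from genes of this kind, and uncalled members of the lists were not counted, so its share does not bear on the rise. Igtp, an interferon-inducible GTPase whose log2 change was 0.42, is shown with the element in capitals.
Igtp, chr11:58199306-58199605, plus strand: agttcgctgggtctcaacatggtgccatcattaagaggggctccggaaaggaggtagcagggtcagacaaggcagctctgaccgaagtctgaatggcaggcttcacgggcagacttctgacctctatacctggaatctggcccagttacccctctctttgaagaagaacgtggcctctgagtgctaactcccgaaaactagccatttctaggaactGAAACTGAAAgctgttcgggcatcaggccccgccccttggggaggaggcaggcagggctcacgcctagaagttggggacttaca

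B cell and follicle genes were lower in 10 of 16 tested and higher in 0, with a median of -0.74. Cr2, the complement receptor of B cells and follicular dendritic cells, was between 0.237 and 5.50 CPM at 24 months (median 1.23) and between 0.104 and 1.34 CPM at 28 months (median 0.472). 15 of 18 older mice were below the 24-month median and 4 below the range, with a log2 change of -1.75 ± 0.46 (adjusted p = 0.011).

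Fcer2a, the low-affinity IgE receptor, was 0 to 2.55 CPM (median 0.39) at 24 months and 0 to 0.896 CPM (median 0.181) at 28 months, with a log2 change of -1.64 ± 0.59 (adjusted p = 0.072). Pax5, the B lineage regulator, changed by -1.06 ± 0.41 and Ms4a1 by -1.01. The summed level of the 16 genes was 33.9 to 145 CPM (median 67.9) at 24 months and 33.5 to 86.6 CPM (median 52.4) at 28 months, so that the lowest mice of both ages were close and the highest mouse was of 24 months. In the fit that held the clock score, 0 of 16 were called, at a median of -0.34, and with smooth muscle and B cell scores in the fit, the latter built from these same genes, 2 were higher and 2 lower.

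Of 12 plasma cell genes, Mzb1 (-0.65 ± 0.19), Derl3 (-0.47 ± 0.16) and Tnfrsf17 (-0.46 ± 0.18) were lower (25%, beside 6.01% of all genes), and 0 with smooth muscle and B cell scores. Of 197 immunoglobulin segments, 7 were higher and 23 lower, 15.2% called beside 11.7% of all genes (0 and 12 when only the 2 ages were fitted, when 1 plasma cell gene was lower). The segments with the largest fitted falls were present in a few mice: Igkv7-33 was 0 to 51.5 CPM (median 0.165) at 24 months and 0 to 0.432 CPM (median 0.0291) at 28 months, and Ighv7-4 was 0 to 333 CPM (median 1.02) at 24 months and 0 to 25.1 CPM (median 0.569) at 28 months, so that their fitted folds rest on those mice. Of 22 T cell genes 0 were called by edgeR or DESeq2 (2 at an unadjusted p below 0.05), Gzma being at 0.32 (adjusted p = 0.21), and 4 were higher with smooth muscle and B cell scores in the fit, and the list's summed level was 62.0 to 129 CPM at 24 and 73.3 to 218 CPM at 28 months. Of 20 macrophage and dendritic cell genes 1 was called, beside 11.7% of all genes. It was Cd209a, lower in all 18 mice relative to the 24-month median, from a median of 1.09 to 0.555 CPM (log2 change -1.001 ± 0.21, adjusted p = 0.00096). Of 34 chemokines and receptors, 1 was higher and 2 lower (8.82% called), and of 20 complement genes 2 were lower (10%), beside 11.7% of all genes, and with smooth muscle and B cell scores in the fit 0 of either list were lower, and 5 of the former and 1 of the latter were higher. Ccl20, which draws lymphocytes to follicles, changed by -0.56 ± 0.19 (adjusted p = 0.053) and Ccl28 by -0.18 ± 0.06, and the complement genes C7 by -0.47 ± 0.16 and Cfp by -0.23 ± 0.09.

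**Figure D4:**
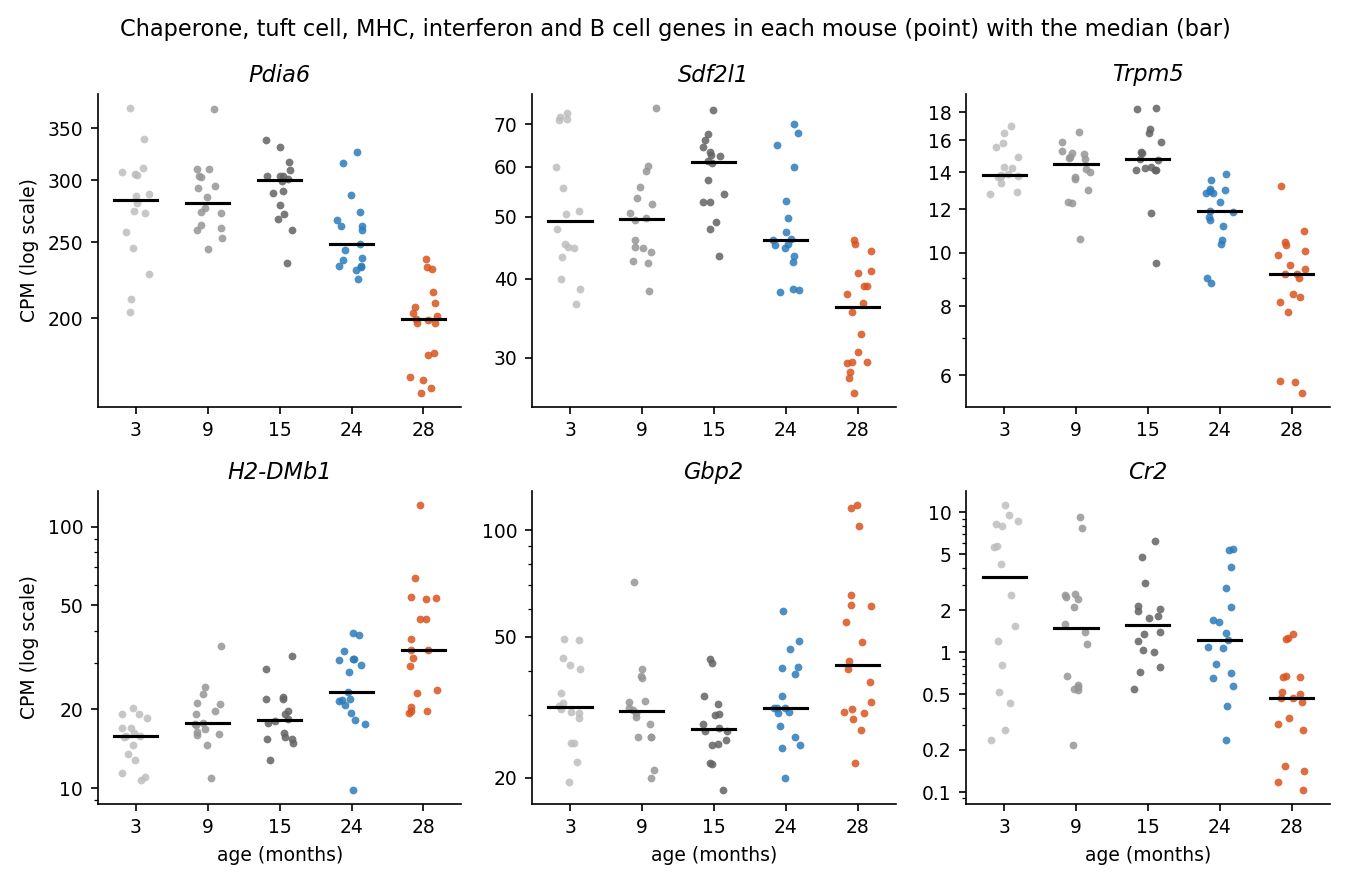
CPM on a log axis of 6 genes in each of the 83 mice (points) against age in months, with the median of each age as a bar. Pdia6, Sdf2l1, Trpm5 and Cr2 are lowest at 28 months, and H2-DMb1 and Gbp2 are highest there, with single mice up to 121 and 117 CPM.

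In the deeper wall few genes passed in the fit over all ages. Of 18 smooth muscle genes 0 were called by edgeR or DESeq2 (0 at an unadjusted p below 0.05), although all 18 had a negative value (median -0.19) and 8 were called lower when only the 2 ages were fitted (1 higher with smooth muscle and B cell scores), and the smooth muscle sum was 5621 to 9150 CPM at 24 and 4771 to 8345 at 28 months. Of 22 fibroblast and collagen genes, 4 collagens were lower (18.2%, beside 6.01% of all genes), Col1a1 (-0.32 ± 0.11), Col3a1 (-0.31 ± 0.10), Col6a3 (-0.28 ± 0.10) and Col5a2 (-0.24 ± 0.08). Of 19 neuronal genes 1 was lower, the neurofilament Nefl (-0.38 ± 0.14), beside 6.01% of all genes, although all 19 had a negative value (median -0.15, and 0.02 with smooth muscle and B cell scores). Of 13 glial genes 2 were lower (15.4%, beside 6.01% of all genes), Fabp7 (-1.002 ± 0.20) and Gfra2 (-0.33 ± 0.12). Fabp7 averaged only 0.42 CPM at 24 and 0.21 CPM at 28 months. The median of the glial list was 0.01, with 7 positive and 6 negative values. With smooth muscle and B cell scores in the fit 0 of the 22 fibroblast and collagen genes were lower and 1 was higher. With the clock score the 4 collagens were at 0.02 to 0.09 and not called.

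The enzymes of DNA methylation, which the study followed on the same colons, were not called. Dnmt1, the maintenance methyltransferase, was at -0.12 ± 0.06 (adjusted p = 0.19), Dnmt3a at 3.2e-05 ± 0.04, Dnmt3b at 0.07 ± 0.07, and the oxidases Tet1, Tet2 and Tet3 at 0.11 ± 0.11, 0.09 ± 0.06 and 0.04 ± 0.04. Ezh2, the Polycomb methyltransferase, was at -0.03 ± 0.03. Of the 20 genes of this list, the Polycomb subunits Cbx7 (0.23 ± 0.05, adjusted p = 0.0053) and Rnf2 (0.12 ± 0.04, adjusted p = 0.091) were higher, 2 of 20 against 11.7% of all genes. Of 32 Hox genes, Hoxb9 (0.17 ± 0.05) and Hoxa7 (0.12 ± 0.05) were higher, a share near the 5.66% of all genes.

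**Figure D5:**
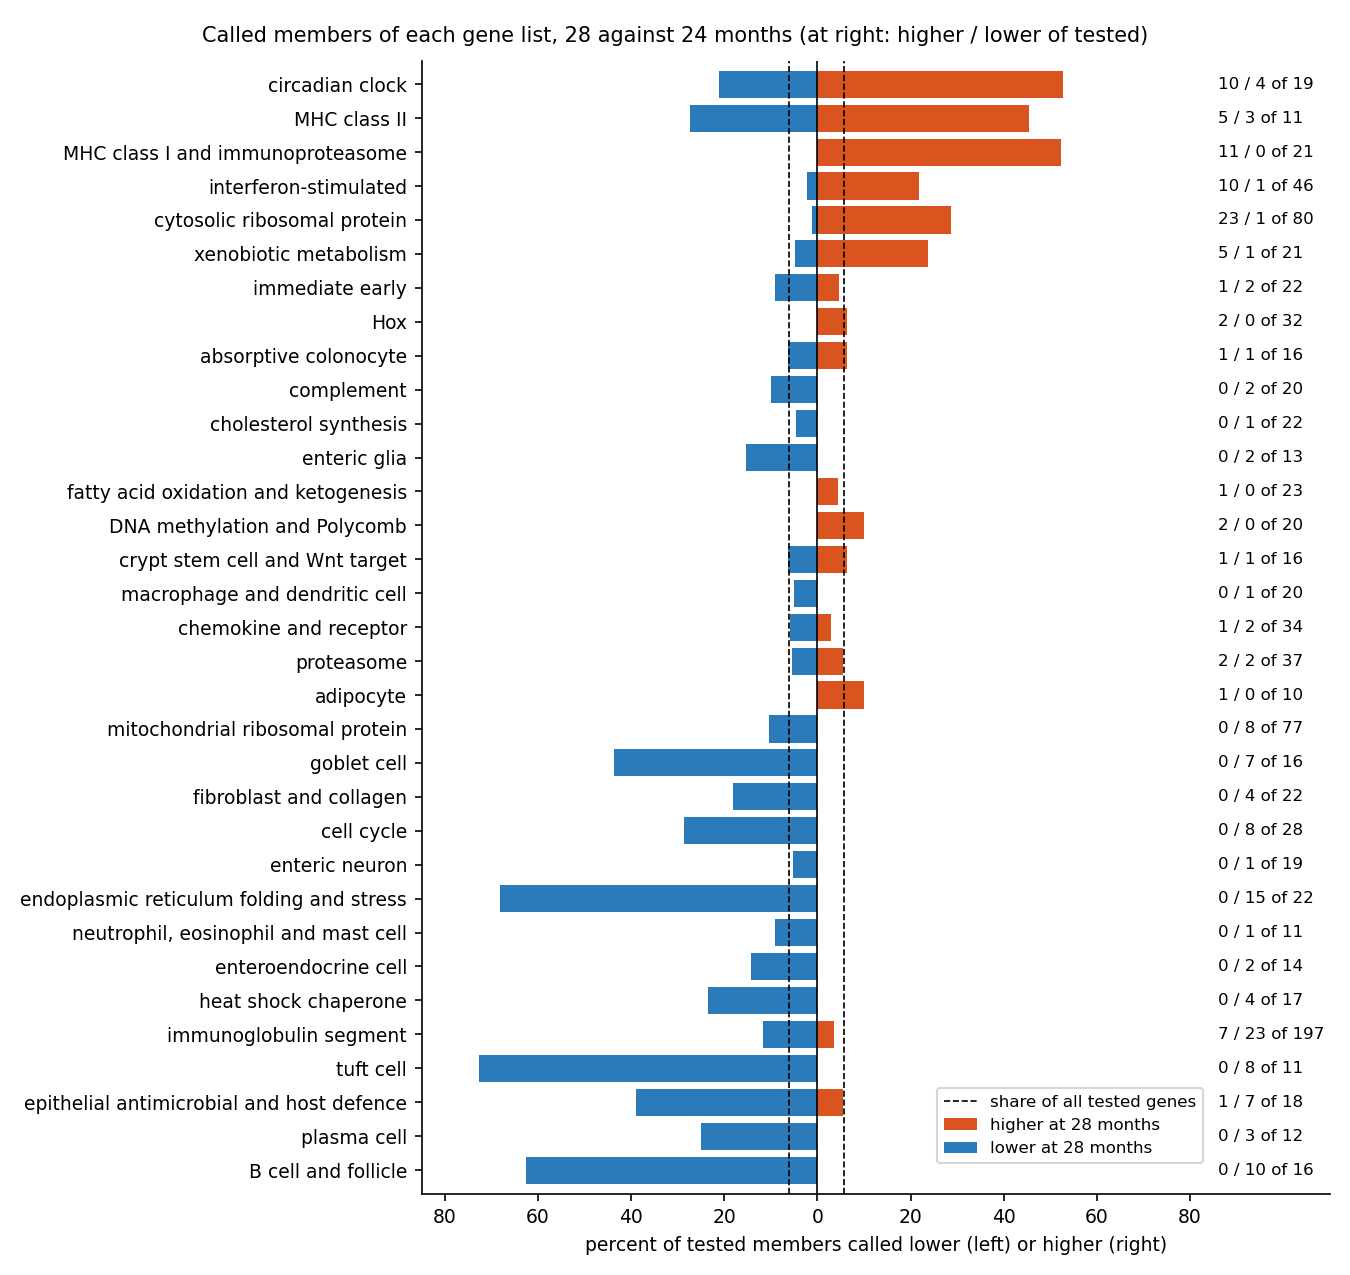
Percent of tested members of each gene list called higher (orange, right) or lower (blue, left) at 28 than at 24 months, with the dashed lines at the shares over all tested genes, 5.66% and 6.01%, and the counts at the right. Lists with at least 1 called member and at least 5 tested are shown, ordered by their median change. Tuft cell, endoplasmic reticulum and B cell lists reach furthest to the left, and clock and MHC class I lists furthest to the right.

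To find genes whose change was confined to the last interval, the change from 24 to 28 months was tested against the earlier one, from the mean of 3, 9 and 15 months to 24 months. This contrast was called for 382 genes (2.08%). The 2 differences share the 24-month mice, which enter the test with opposite signs. A gene was counted as confined if both tests passed with the same sign and if its fitted values at 3, 9, 15 and 24 months ranged over less than 0.5 of the last change. This left 26 of 18325 genes (0.142%), 16 higher and 10 lower. Nearest the limit, the earlier range was 0.482 of the last change for Cd300lf, which was counted, and 0.501 for Adamts9, which was not.

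Of the 26, 8 were clock genes: Ciart, Dbp, Tef, Per3, Nr1d1, Nr1d2, Arntl and Npas2. Medians of Ciart at 3, 9 and 15 months were 0.753, 0.773 and 0.742 CPM, beside 0.653 at 24 and 3.59 at 28 months, and the difference between the last and the earlier change was 2.52 (adjusted p = 0.0019). For Tef the earlier medians were 20.1, 21.9 and 21.6 CPM and the difference 1.60 (adjusted p = 0.003), and for Arntl 49.7, 47.1 and 49.7 CPM and -0.71 (adjusted p = 0.051).

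Beyond the clock, 3 rises and 5 falls are described. Prodh, proline dehydrogenase, was between 14.6 and 21.7 CPM at 24 months (median 16.6) and between 16.9 and 28.4 CPM at 28 months (median 21.04). All 18 older mice lay above the 24-month median (log2 change 0.31 ± 0.05, adjusted p = 9.2e-05, earlier change -0.01). Gabre, a receptor subunit for GABA, rose by 0.30 ± 0.07 and Anxa7, an annexin, by 0.28 ± 0.05, after earlier changes of -0.05 and 0.01.

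Serpinh1, the collagen chaperone HSP47, was between 63.5 and 169 CPM at 24 months (median 95.9) and between 38.95 and 97.4 CPM at 28 months (median 64.3). 8 of 18 older mice were below the 24-month range, after medians of 89.1, 82.6 and 92.4 CPM at 3, 9 and 15 months. The fitted log2 change was -0.61 ± 0.11 (adjusted p = 0.00021), and the test against the earlier change gave -0.76 (adjusted p = 0.013). Of 6 red blood cell genes tested none was called by edgeR or DESeq2 (1 at an unadjusted p below 0.05) and all had positive values, Alas2 being at 0.33.

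Cd300lf, an inhibitory receptor, changed by -0.41 ± 0.10, Praf2 by -0.38 ± 0.07, the cell cycle factor E2f2 by -0.37 ± 0.08 and the receptor kinase Grk6 by -0.12 ± 0.03. Praf2 was below the lowest 24-month mouse in 13 of 18 older mice. The count of confined genes depended on the earlier change used and on the covariates: with 24 against 15 months as the earlier change 4 were left, all clock genes (Ciart, Dbp, Per3 and Tef), and with smooth muscle and B cell scores in the fit 7. Once the clock score was included, 1 was left, an immunoglobulin segment that was not among the 26.

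For a few genes of the other groups the earlier and last changes are given side by side. In simulated counts 52 of 100 genes changed by 0.5 (log2) were found as confined, so a gene that did not pass may still differ between the intervals. The earlier changes of H2-DMb1, Nlrc5 and Tap1 were 0.52 (adjusted p = 0.0022), 0.46 (adjusted p = 0.0018) and 0.33 (adjusted p = 0.004), and the last changes, 0.63, 0.45 and 0.35, did not differ from them at the threshold (adjusted p = 0.9, 0.99 and 0.97). Trpm5 had an earlier change of -0.29 (adjusted p = 0.00031) and a last one of -0.40. Mptx1, Ang4 and Clca1 had earlier changes of -1.01, -0.18 and -0.26 that were not called at the 0.1 threshold except Mptx1 (adjusted p = 0.069), and their last changes were not distinguished from those (adjusted p = 0.42, 0.27 and 0.3). Pla2g4c and Gsdmc3 passed the test between the 2 changes (-3.27, adjusted p = 0.052, and -1.40, adjusted p = 0.072), but their levels at the earlier ages varied too much for them to count as confined. Il17rb and Sult1a1 passed as well after changes of opposite sign, 0.28 and -0.23 up to 24 months and -0.38 and 0.28 after it.

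Among non-coding genes named by the same rule, the pseudogenes AC151990.1 and BC023105 rose by 1.74 ± 0.45 and 1.01 ± 0.31 and the antisense gene Tbx3os1 by 0.78 ± 0.15 (adjusted p = 0.00028), while the transcript annotated at Anxa13 fell from a median of 5.97 to 3.12 CPM (log2 change -0.90 ± 0.18, adjusted p = 0.00048) and the pseudogene Gm8221 by 0.79 on the log2 scale. AC151990.1 differed mostly in library batch 3 (1.08, 0.22 and 3.34 in the 3 batches).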

How the data were processed

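RNA-seq libraries (TruSeq stranded kit, polyA selection) of 83 colons were compared by age. Per the labels and methods, the authors used cutadapt 2.8 for trimming and PrinSeq Lite for read filtering, mapped to GRCm38 by HISAT2 2.1.0 and counted read pairs per gene with featureCounts of Subread 2.0.1, using strand. The deposited values are whole counts per gene and mouse, not normalized, for 37764 genes. Positions and gene types came from GENCODE M21 (GRCm38), in which 37652 genes were found. Columns were assigned to mice by their names in the labels.

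Counts were filtered with filterByExpr by age, scaled with TMM and fitted in edgeR 4.0.16 (R 4.3.3) over all mice with age and library batch, tested with the quasi-likelihood F-test at a Benjamini-Hochberg adjusted p below 0.1. Fitted changes are log2 with SE, and CPM uses the TMM library size. The spread between mice used log2 CPM with a prior count of 2 for the 14995 genes averaging at least 1 CPM, with batch means removed. Two-sided permutation tests used 100000 resamples in scipy 1.17.1. DESeq2 1.42.0 was an alternative. Python 3.11.15 with pandas 2.3.3, numpy 2.4.6 and matplotlib 3.10.9 made tables and figures. Pairs of mice of one age differed by at least 14.1 times the counting noise (over genes with at least 100 counts in the pair), so no library was a copy of another.

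Genes named outside the lists had an adjusted p below 0.1, an average of at least 1 CPM and the same sign in the 3 batches. Their group medians differed in the same direction by at least 0.5 of the fitted change. Immunoglobulin and T cell receptor segments were left out among them. In each direction they were, among protein-coding genes, the 12 largest changes, the 6 lowest p-values and the 10 largest confined, and 3 non-coding genes. Of each of 47 gene lists, up to 4 called members were named without these filters (where none was called, up to 2 with the lowest p). Some list members are therefore below 1 CPM or are immunoglobulin segments. Dnmt, Tet and Ezh2 genes are named whatever their result, and other list members were named after their values were seen. Some genes that the rule names are not reported here. The comparison, its members and all lists were chosen with earlier results of these data known, so no list is independent evidence. Replicate numbers were not taken as pairs: of 17 same-numbered pairs of 24 and 28-month mice, 2 deviated together (correlation over 0.1), between -0.30 and 0.28. P-values measure the spread between these mice and treat each mouse as independent. Which mice shared a cage, a litter or a day of sampling is not in the labels, and such sharing could make the p-values too small. In simulated counts of 18249 genes, 100 of 100 genes changed by 0.5 and 100 of 100 changed by 1 (log2) between 24 and 28 months were called, with 30 of 18049 unchanged ones, and of the changed genes 52 and 100 were found as confined. The simulated counts had a spread set by the mean alone, no batch effect and no variation shared between genes of a mouse. They do not give the power in the real mice, where Per2 at 0.59 and Reg3b at -0.92 were not called. Alternatives were DESeq2, its size factors, other filters, no batch term, a replicate block, only the 2 ages, cell scores, a threshold of 0.05, leaving out each mouse, and, added after the data were seen, the clock score. The bisulfite data were not used here.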

Additional observations from a re-analysis of the deposited data

How the results depend on the processing

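The count of 2139 genes ranged from 1460 to 2271 over the other planned settings of filter, scaling, batch term, cell scores and tool, and was 1302 at a threshold of 0.05. With the replicate block it was 1780, and since the replicate numbers did not pair the mice, the block rests on a shared number alone. Under it, 5 interferon-stimulated genes were higher in place of 10, and 4 B cell genes were lower in place of 10, which were 14 with only the 2 ages. Also with the block, 3 MHC class II genes were higher in place of 5 and 1 immunoglobulin segment in place of 7. Lower were 5 plasma cell genes in place of 3 and 5 cell cycle genes in place of 8. Leaving out 1 mouse at a time gave 1643 (without 28-month mouse 7) to 2481 genes (without 28-month mouse 10). The largest dependence was on the clock score, chosen after seeing the data, which left 13 genes. The score differed between the ages, so it also takes up part of the age difference. The 382 genes whose last change differed from the earlier one became 112 with smooth muscle and B cell scores, 85 with the clock score and 177 at a threshold of 0.05. The 26 confined genes became 7, 1 and 8 under the same settings, 15 with a stricter limit on the earlier range, and 4 with 24 against 15 months as the earlier change.

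Fitted signs turned with the clock score for Dbp (-0.15), Nr1d1 (-0.15), Nr1d2 (-0.0909), Hlf (-0.0760), Slc9a3 (-0.0355), Arntl (0.0368), Npas2 (0.0155), Cry1 (0.0989), E2f2 (0.0010), Col1a1 (0.0864), Col3a1 (0.0504), Col6a3 (0.0613), Col5a2 (0.0195) and Cfp (0.0501), and with cell scores for Pax5 (0.0241). None of these was called under that setting in edgeR. The cause was not tested. For the 173 named genes, of which 136 were called, leaving out single mice gave 322 lost calls, 49 gained ones and 0 turned signs among 6040 values.

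Leaving out a mouse was not run for the contrast between changes and for the confined genes. Counts limit the precision of low genes, such as Mptx2, Notum, Fabp7, Fcer2a and the immunoglobulin segments.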

Other observations

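Of 22 immediate early genes 1 was higher and 2 were lower, of 22 cholesterol synthesis genes 1 was lower, and of 23 genes of fatty acid oxidation and ketogenesis 1 was higher. Against 5.66% of all genes higher and 6.01% lower, these are near the background. None of the 17 genes of the p53 response and senescence was called by edgeR or DESeq2 (3 at an unadjusted p below 0.05).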
